A study of Mus musculus with 16 samples.

Results

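This report follows 9 genes that transforming growth factor beta (TGF-beta) signalling is known to regulate, across airway epithelium with and without the integrin subunit beta6. The genes are Smad7, Smad6, Skil, Pmepa1, Id1, Ccn2 (also called Ctgf), Tgfbi, Fn1 and Postn. They were chosen by name from common knowledge of the pathway, but with earlier results of these data known. Their probes were found through the RefSeq accession that the scanner files give for each probe. All 9 had at least 1 probe, 14 probes in all, and all 9 entered the test among 18566 genes and unnamed transcripts.

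The samples were FvB mice, wildtype (wt) or beta6 knockout (ko), which were 6 to 8 weeks old at sensitization. In the OVA groups, 20 µg of ovalbumin (OVA), an egg protein used as an allergen, was injected into the peritoneum on days 1, 4 and 7, and 10 µg was given into the nose weekly for 9 weeks. The saline groups received saline on the same schedule, and the airway epithelium was taken 24 h after the last challenge. Each of the 4 groups (wt_saline, wt_OVA, ko_saline and ko_OVA) had 4 one-colour Agilent arrays. How the beta6 allele was made, and whether an array stands for 1 mouse or a pool, is not given in the sources used here, so p-values measure the spread between these 16 samples.

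TGF-beta is secreted in a latent complex, and the integrin alpha v beta6 of epithelial cells binds the latency peptide and releases the active ligand. Active TGF-beta signals through a pair of serine/threonine kinase receptors to Smad2 and Smad3, which enter the nucleus with Smad4 and switch genes on or off. The related bone morphogenetic proteins (BMPs) use Smad1 and Smad5 and induce an overlapping set of genes, Id1 and Smad6 among them. The design asks whether these targets are lower in epithelium that lacks an activator of latent TGF-beta.

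Levels are log2 values relative to the 75th percentile of the array, so 0 is the level of that percentile. They were set to no less than a floor of -3.32, below which at least 1 array cannot tell a probe from background. The 75th percentile itself lay between an intensity of 78.0 and 793, and between 43.3% and 74.5% of probes were well above background. Epithelial markers were high on all 16 arrays, with a mean log2 level of the 8 genes between 4.65 and 5.21. Macrophage markers, by contrast, ranged from -1.13 to 0.90. Striated muscle markers ranged from -2.80 to 4.65. In bulk epithelium, fewer cells of a type and less RNA per cell cannot be told apart. The targeted gene, Itgb6, had a mean log2 level of -0.75 ± 0.25 in wt_saline and -0.59 ± 0.04 in wt_OVA, against -0.86 ± 0.13 for ko_saline and -1.17 ± 0.36 for ko_OVA (SD, n = 4 each). The difference of ko from wt over both agents was -0.34 ± 0.11 (SE, limma adjusted p = 0.452). Another Itgb6 probe, well above background on all 16 arrays, gave -0.55 (adjusted p = 0.0978 where every probe was tested on its own). Its difference was -0.28 after saline and -0.81 after OVA (adjusted p = 0.915 and 0.134). On each of these probes the ko_OVA arrays lay below the wt_OVA arrays without overlap, while the saline groups overlapped. The remaining Itgb6 probe was at the floor on all arrays. Whether the Itgb6 probes lie in the deleted part is not given in the sources used here, so their level does not check the genotype labels.

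None of the 9 genes was called lower in the knockout, and none higher, after saline, after OVA or over both agents (limma over all genes, Benjamini-Hochberg adjusted p under 0.05). Across all genes tested, 0.124% were higher and 0.0377% lower in ko after saline, 0.102% and 0.0431% after OVA, and 0.205% and 0.0646% over both agents. The median difference of the 9 genes was -0.07 after saline, -0.06 after OVA and -0.02 over both agents, where the medians of all genes were 0, 0 and -0.01. In the same limma fit, 1442 of all genes had an unadjusted p under 0.05 over both agents, Smad6 and Fn1 among them. Calls this rare leave a count of 0 among 9 genes close to the background.

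The other comparisons gave no call among the 9 genes either. With OVA in wt, 1.56% of all genes were higher and 1.06% lower. The shares in ko were 0.479% and 0.269%. The interaction, which asks whether the OVA effect differs between genotypes, called 0% higher and 0% lower over all genes, with 569 genes at an unadjusted p under 0.05. Fn1 with OVA in wt came nearest to the threshold, at an adjusted p of 0.0502.

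**Figure D1:**
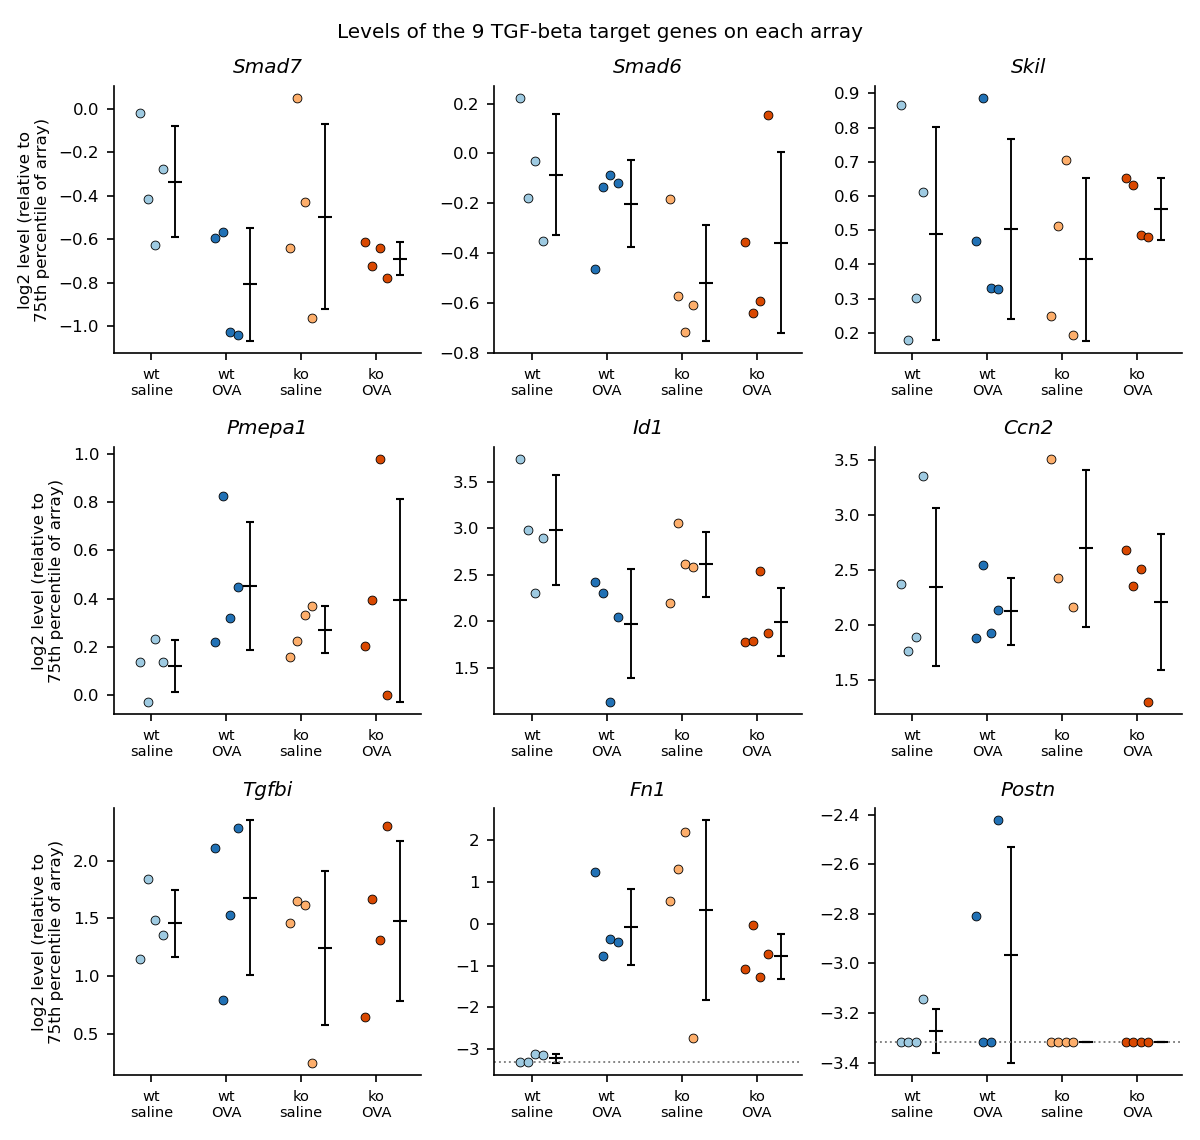
Log2 level of each of the 9 genes on every array (points, 4 per group, 3 for Ccn2 in ko_saline) with the group mean and SD (bars to the right of the points); each panel has its own vertical scale, and the dotted line in the last panels is the floor. The 4 wt_saline arrays of Fn1 lie at or near the floor, below each of the other arrays, while the points of the ko and wt groups overlap for Smad7, Skil, Ccn2 and Tgfbi.

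The inhibitory members form a feedback loop: TGF-beta induces them and they restrain its signalling. Smad7 blocks the activated receptor and recruits ubiquitin ligases to it. Its log2 levels were -0.02, -0.42, -0.63 and -0.28 in wt_saline and -0.60, -0.57, -1.03 and -1.04 in wt_OVA. In ko_saline they were -0.64, 0.05, -0.43 and -0.96, and in ko_OVA -0.61, -0.72, -0.64 and -0.78. The wt_saline and wt_OVA arrays overlapped slightly, and the ko_saline arrays spanned nearly the whole range of both. The difference of ko from wt over both agents was -0.02 ± 0.14 (SE), with a 95% confidence interval from -0.31 to 0.27 and an adjusted p of 0.970 in limma. With median scaling it was 0.18. The OVA difference was -0.47 ± 0.19 in wt (adjusted p = 0.232) and -0.19 ± 0.19 in ko (adjusted p = 0.863), and neither was called.

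Smad6, the inhibitory Smad that acts mainly on the BMP branch, had the most negative difference of ko from wt over both agents among the 8 genes other than Postn, whose values lie mostly at the floor. It measured 0.22, -0.18, -0.03 and -0.35 in wt_saline and -0.18, -0.57, -0.72 and -0.61 in ko_saline. The corresponding values after OVA were -0.46, -0.13, -0.09 and -0.12 in wt and -0.36, -0.64, -0.59 and 0.16 in ko. The ko arrays lay mostly below the wt arrays, with ko_saline 1, ko_OVA 1 and ko_OVA 4 inside or above the wt range of the same agent. The differences of ko from wt were -0.43 ± 0.18 after saline (adjusted p = 0.750) and -0.16 ± 0.18 after OVA (adjusted p = 0.936). Over both agents the difference was -0.30 ± 0.13, a 1.23-fold lower level, with an interval from -0.57 to -0.02 that excludes 0 only before adjustment (adjusted p = 0.597). With median scaling it was -0.10, and over all settings it ranged from -0.41 to -0.10. Within the 3 slides that held both saline groups, the difference was between -0.46 and -0.26. After OVA it lay between -0.46 and 0.43 within slides.

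RefSeq's promoter table for GRCm38.p6 held windows for 3 of the 9 genes, Smad6, Tgfbi and Postn, of which the first pair is printed because one member of each class, inhibitor and matrix protein, can be set side by side. Each line gives the 250 bases before a transcription start. Capitals mark matches on either strand to the SMAD box CAGAC, or to GGCGCC, a GC-rich element associated with BMP-responsive genes.
Smad6, chr9:64022060-64022309, minus strand: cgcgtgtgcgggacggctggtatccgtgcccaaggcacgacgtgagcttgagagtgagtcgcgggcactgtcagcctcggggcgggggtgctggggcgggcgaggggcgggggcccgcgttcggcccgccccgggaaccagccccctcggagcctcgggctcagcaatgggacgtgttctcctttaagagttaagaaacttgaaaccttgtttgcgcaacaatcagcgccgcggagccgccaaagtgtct
Tgfbi, chr13:56609336-56609585, plus strand: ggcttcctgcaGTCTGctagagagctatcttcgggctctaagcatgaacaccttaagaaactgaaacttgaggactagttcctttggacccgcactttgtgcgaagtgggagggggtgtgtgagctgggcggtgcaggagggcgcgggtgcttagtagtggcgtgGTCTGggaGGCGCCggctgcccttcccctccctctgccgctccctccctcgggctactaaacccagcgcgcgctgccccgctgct
The Tgfbi window held 2 matches to CAGAC and 1 to GGCGCC, and the Smad6 window held 0 of either. Of 32851 windows of this length in the table, 42.2% held CAGAC and 9.59% held GGCGCC, so a match to the first is common. The Smad6 window had a GC content of 66.8% and the Tgfbi window 62.4%, against a median of 52.4% over all windows. A match describes these letters and does not show that a factor binds there.

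Skil encodes SnoN, a co-repressor that binds Smads and is itself induced by TGF-beta. Its log2 level was between 0.18 and 0.87 in wt_saline, 0.33 and 0.89 in wt_OVA, 0.19 and 0.71 in ko_saline, and 0.48 and 0.65 in ko_OVA. All 4 groups overlapped. The difference of ko from wt over both agents was -0.01 ± 0.12 (interval from -0.26 to 0.24, adjusted p = 0.986), and its sign turned with median scaling (0.19) and with the array position as a block (0.12). A second Skil probe lay near the floor, with group means from -3.24 to -2.77.

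Pmepa1 encodes a membrane protein that sequesters Smad2 and Smad3 from the receptor. It measured 0.14, -0.03, 0.23 and 0.14 in wt_saline and 0.22, 0.82, 0.32 and 0.45 in wt_OVA. In ko_saline the values were 0.16, 0.23, 0.33 and 0.37, and in ko_OVA 0.20, 0.39, 0.98 and 0.00. The highest arrays were an OVA array of each genotype, and the groups overlapped. OVA differed from saline by 0.33 ± 0.18 in wt (adjusted p = 0.375) and by 0.12 ± 0.18 in ko (adjusted p = 0.946). The ko difference over both agents was 0.05 ± 0.13, with an interval from -0.22 to 0.31 and an adjusted p of 0.927. The second Pmepa1 probe, well above background on all 16 arrays, had the opposite sign over both agents (-0.20, adjusted p = 0.781 where every probe was tested on its own) and gave -0.37 after OVA, where the first gave -0.06. Without ko_OVA 3, the OVA difference in ko was -0.07.

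**Figure D2:**
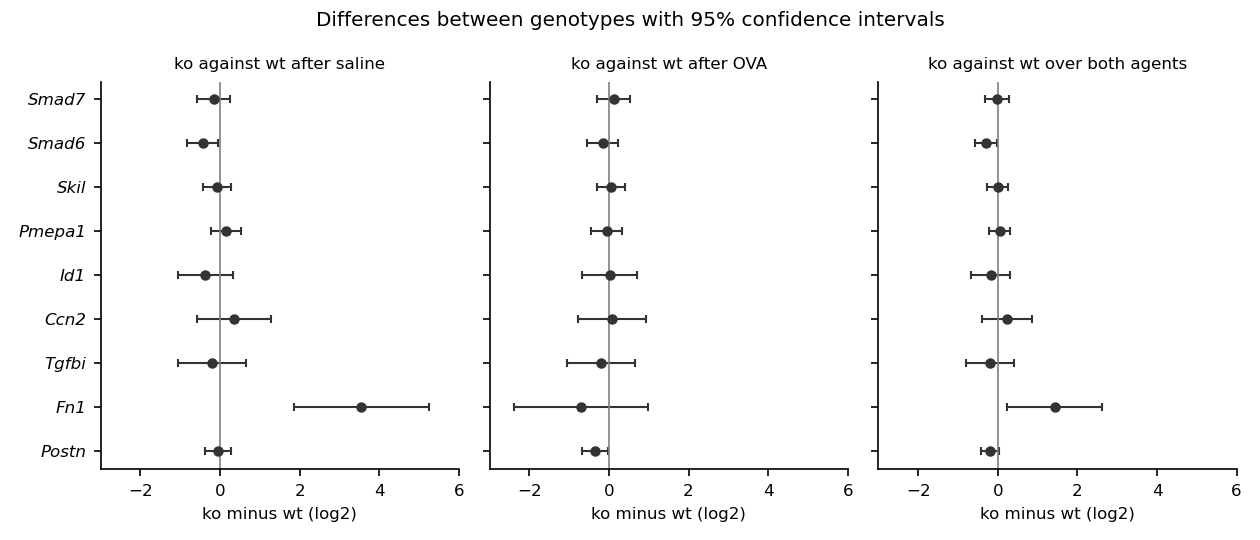
Difference of ko from wt in log2 units for each of the 9 genes (points) with 95% confidence intervals from the limma fit (bars), after saline, after OVA and over both agents. Apart from Fn1, the intervals over both agents lie between -0.81 and 0.85 and, except for Smad6, include 0, that of Postn resting on floor values; Fn1 after saline stands at 3.55.

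Id1, an inhibitor of basic helix-loop-helix factors, is a direct target of BMP-activated Smads and is induced or repressed by TGF-beta depending on the cell. Its log2 levels were 3.75, 2.99, 2.30 and 2.90 in wt_saline and 2.42, 2.31, 1.13 and 2.05 in wt_OVA. They were 2.20, 3.06, 2.61 and 2.59 in ko_saline and 1.78, 1.79, 2.54 and 1.87 in ko_OVA. In each genotype the OVA arrays lay mostly below the saline arrays, with a small overlap. OVA differed from saline by -1.01 ± 0.32 in wt, a 2.01-fold lower level (unadjusted p = 0.00736, adjusted p = 0.122 in limma), and by -0.62 ± 0.32 in ko (adjusted p = 0.591). Neither difference was called, although 1 of 34 alternatives, array weights, called the one in wt (-1.44, adjusted p = 0.0279, over a range of adjusted p from 0.0279 to 0.346). Within slides the OVA difference was below 0 on all 3 slides of each genotype, between -1.70 and -0.53 for wt and between -1.05 and -0.04 for ko. The second Id1 probe gave -1.07 in wt and -0.58 in ko.

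No difference of Id1 between the genotypes was called. The ko difference over both agents was -0.17 ± 0.23 (interval from -0.66 to 0.31, adjusted p = 0.830). After OVA alone it was 0.02 ± 0.32 (adjusted p = 1). The interaction was 0.39 ± 0.46 (adjusted p = 0.993). Among the pairs of the 9 genes, Id1 and Smad7 had the highest correlation over the 16 arrays (Pearson's r = 0.797, Spearman's rho = 0.768), a description over arrays that share groups and slides. Lrrc28 (r = 0.842) and Mnd1 (0.842) were among the 3 named genes that followed Id1 most closely over the 16 arrays. For Smad7 they were Mnd1 (0.828), Lrrc28 (0.823) and Vasn (0.809).

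The BMP branch held the only gene of the pathway lists that passed the test, whereas Id1 itself was not called. Bmp4, a BMP ligand, measured 0.48, 0.22, 0.52 and 0.28 in wt_saline and -0.62, -0.44, -0.40 and -0.66 in wt_OVA. In ko_saline it measured 1.28, 0.97, 0.88 and 1.25, and in ko_OVA -0.21, -0.29, -0.38 and -1.21. The OVA arrays lay below the saline arrays in each genotype without overlap. With OVA, Bmp4 fell by 0.91 ± 0.18 on the log2 scale in wt (limma adjusted p = 0.0174) and by 1.62 ± 0.18 in ko (adjusted p = 0.000932). The call held under 29 of 34 alternatives in wt (adjusted p from 0.00105 to 0.169) and 32 of 34 in ko (0.000198 to 0.103). It was lost in wt without wt_saline 1 (adjusted p = 0.0610), without wt_OVA 1 (0.0602) and without the slide scanned on another day (0.0991), and in ko where only its own arrays were fitted (0.103). Median scaling ended the call in both genotypes and the array position as a block ended it in wt. Smooth muscle and fibroblast markers were lower in the median beside Bmp4. The median OVA difference of the 6 smooth muscle markers was -0.36 in wt and -1.004 in ko, and that of the 7 measured of 8 fibroblast markers -0.44 and -0.51, with 0 called in either list. The smooth muscle marker Cnn1, chosen after its values were seen, had means of 1.098 in wt_saline and -1.08 in wt_OVA. Its means were 2.10 in ko_saline and -0.33 in ko_OVA, beside Bmp4 means of 0.38, -0.53, 1.09 and -0.52. Acta2 and Des, of the same list, were not lower with OVA in wt. Their means were 2.78 and -2.63 in wt_saline, against 2.89 and -2.44 in wt_OVA, where Des was at the floor on 3 arrays. The median OVA difference of 5 measured endothelial markers was 0.17 in wt and -0.37 in ko. Of these, Kdr was called lower with OVA in ko (-2.25 ± 0.48, limma adjusted p = 0.0453). In wt its mean also fell, from -1.17 in wt_saline to -2.90 in wt_OVA, where 2 arrays were at the floor, but it was not called. The part of stromal RNA in the Bmp4 values was not tested. All 4 ko_saline arrays of Bmp4 lay above the 4 wt_saline arrays, by 0.72 ± 0.18 in the mean, which was not called (adjusted p = 0.341). Without ko_OVA 4 the same difference had an adjusted p of 0.0127, over a range from 0.0127 to 1. The remaining 15 of the 16 measured genes of the branch were not called with OVA in either genotype, and the median of the 16 was 0.07 in wt and 0.11 in ko, against 0.00089 and 0.00042 for all genes.

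**Figure D3:**
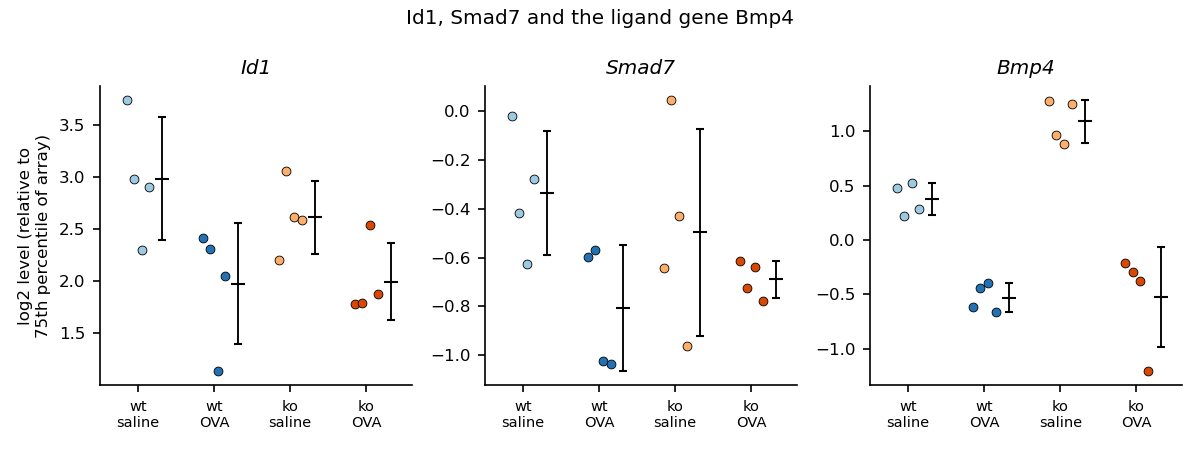
Log2 level of Id1, Smad7 and the BMP ligand gene Bmp4 on each array (points, 4 per group) with the group mean and SD (bars). The OVA arrays of Bmp4 lie below the saline arrays of the same genotype without overlap; those of Id1 and Smad7 lie mostly lower but overlap.

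The matrix members encode secreted proteins that TGF-beta induces in fibroblasts and many epithelia. Ccn2 encodes connective tissue growth factor, a matricellular protein. It measured 2.38, 1.77, 1.89 and 3.36 in wt_saline, 1.88, 2.55, 1.93 and 2.14 in wt_OVA, and 2.68, 2.36, 2.51 and 1.30 in ko_OVA. In ko_saline it measured 3.51, 2.43 and 2.17, since the spot on ko_saline 3 was flagged and left out (n = 3). The highest arrays were wt_saline 4 and ko_saline 1, and the groups overlapped. The ko difference over both agents was 0.22 ± 0.29 (interval from -0.41 to 0.85, adjusted p = 0.832). The OVA difference was -0.22 ± 0.40 in wt (adjusted p = 0.817) and -0.49 ± 0.43 in ko (adjusted p = 0.83). Over 15 arrays Ccn2 was followed most closely by Nup160 (r = 0.886), Fzd1 (0.859) and Svil (0.845).

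Tgfbi encodes a TGF-beta-induced matrix protein that binds integrins and collagen. It measured 1.15, 1.84, 1.49 and 1.36 in wt_saline and 2.11, 0.79, 1.53 and 2.28 in wt_OVA. In ko_saline it measured 1.46, 1.65, 1.61 and 0.25, and in ko_OVA 0.64, 1.67, 1.31 and 2.30. The array ko_saline 4 was the lowest of all 16, and the OVA arrays of both genotypes spread from 0.64 to 2.30. The ko difference over both agents was -0.21 ± 0.28 (interval from -0.81 to 0.40, adjusted p = 0.836), and without ko_saline 4 it was -0.04. The closest genes over the 16 arrays were Ncf4 (r = 0.877), Fcgr1 (0.875) and C1qb (0.871), of which C1qb is on the macrophage marker list. That list, with 7 of 8 genes measured, had its lowest mean on ko_saline 4 as well, at -1.13, where Marco and Mrc1 lay at the floor. The part of macrophage RNA in the Tgfbi values was not tested.

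Fn1 encodes fibronectin, the matrix glycoprotein that cells assemble through integrins, and its values spread most among the 9 genes. Its SD over the 16 arrays was 1.78, at the 99.4th percentile of all genes tested. Fn1 lay at the floor on wt_saline 1 and 2 and at -3.11 and -3.15 on wt_saline 3 and 4, and was well above background on the latter pair only. In wt_OVA it measured 1.25, -0.78, -0.36 and -0.44. It measured 0.54, 1.31, 2.20 and -2.74 in ko_saline and -1.09, -0.04, -1.27 and -0.73 in ko_OVA. The wt_saline arrays lay below each of the other 12 arrays, and ko_saline 4 was close to them.

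With OVA in wt, the Fn1 difference was 3.14 ± 0.79, with an interval from 1.46 to 4.83. On 2 of the 4 wt_saline arrays the probe was at the floor and not well above background. For this probe and background method the difference is thus a lower limit set by the floor, and no fold is given. It narrowly missed the threshold at an adjusted p of 0.0502 in limma. It was called under 12 of 34 alternatives, with adjusted p from 0.00251 to 0.273. Those included the fit of only the arrays compared (0.0220), slide as a fixed block (0.0322), a lower floor (3.47, 0.0333) and the fits without ko_saline 3 (0.0347) or ko_saline 4 (0.00251). Background correction with normexp gave 1.81 (0.273). The mean of all Fn1 probes gave 1.40 (0.154), the lowest value over the 34 alternatives. Within the 3 slides that held both wt groups, the difference was 2.37, 2.87 and 3.55.

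After saline, Fn1 was higher in ko than in wt in each slide that held both, by 0.41, 3.86 and 5.07, and by 3.55 ± 0.79 in the mean (adjusted p = 0.154). The larger pair of slide values and the mean rest on the floor values of wt_saline 1 and 2 and are limited by them, and with a lower floor the mean difference was 3.88 (adjusted p = 0.0813). The library ko_saline 4 decided this result. Without it, the difference was 4.58 ± 0.47 (adjusted p = 0.000295, over a range of adjusted p from 0.000295 to 0.986 among the alternatives). The difference over both agents was 1.43 ± 0.56 with all arrays (adjusted p = 0.549) and 1.94 without ko_saline 4 (adjusted p = 0.0195). After OVA, ko minus wt was -0.70 ± 0.79 (adjusted p = 0.932), and OVA minus saline in ko was -1.11 ± 0.79 (adjusted p = 0.754). The interaction was -4.25 ± 1.11 (unadjusted p = 0.00184, adjusted p = 0.993). Without ko_saline 4 it was -5.28 (adjusted p = 0.0325, over a range from 0.0325 to 1).

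A further Fn1 probe did not leave the floor on any wt_saline array. Its group mean was -2.46 in wt_OVA, while ko_saline had -1.51 and ko_OVA -3.11. Its difference of ko from wt after saline was 1.81 (adjusted p = 0.613 where every probe was tested on its own), and that of OVA in wt was 0.85 (adjusted p = 0.518). The third probe was at or near the floor in each group. The probe used for the test was printed as 10 spots per array, the others as 1.

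Marker lists of other cell types varied over the same arrays. The 8 measured of 10 mast cell markers had a mean log2 level between -1.88 and -1.22 in wt_saline, with 2 to 5 of them at the floor. They lay between 0.25 and 1.17 in wt_OVA, 1.31 and 1.53 in ko_saline, and 1.57 and 2.01 in ko_OVA. The lowest group was thus wt_saline, as for Fn1, but on ko_saline 4 the mast cell mean was 1.31 beside Fn1 at -2.74. The summed level of the list was 30.6 to 43.9 times the 75th percentile in wt_saline and 53.1 to 61.2 in wt_OVA. It was 75.2 to 97.0 in ko_saline and 85.2 to 129 in ko_OVA. Hdc weighed most in this sum in the wt groups, with means of 5.14 in wt_saline and 5.18 in ko_saline. The list did not move together. After saline, 5 of its genes were called higher in ko and 0 lower, beside 0.124% and 0.0377% of all genes. After OVA, 4 were called higher but Mcpt1 and Mcpt2 lower, beside 0.102% and 0.0431%. The 6 smooth muscle markers had means between 0.81 and 1.49 in ko_saline and between 0.19 and 0.76 in wt_saline, and those ranges did not overlap. The whole list did not share this gap. Des, at -2.63 in the mean of wt_saline and -0.93 in ko_saline, was highest on ko_saline 2, wt_OVA 1 and ko_saline 3. Those arrays also had the highest striated muscle means. The group means of Acta2, Tagln and Cnn1 were higher in ko_saline too, while those of Myh11 and Actg2 were lower. Without Des the ranges of the mean overlapped, as wt_saline 2 and ko_saline 3 show. Acta2, Myh11, Tagln, Cnn1 and Actg2 measured 2.57, -2.15, 3.78, 1.27 and 1.59 on wt_saline 2. On ko_saline 3 they measured 3.06, -1.98, 2.66, 2.30 and -0.17. The smooth muscle means were not higher with OVA, at -1.09 to 0.65 in wt_OVA and -0.61 to 0.11 in ko_OVA, whereas Fn1 was above wt_saline in both. On ko_saline 4 the smooth muscle mean was 0.81 beside Fn1 at -2.74. Fibroblast markers, 7 of 8 measured, lay between -0.23 and 0.92 in ko_saline and between -0.41 and 0.37 in wt_saline, with -1.37 to 0.30 in wt_OVA and -0.36 to 0.27 in ko_OVA.

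Macrophage markers, 7 of 8 measured, followed Fn1 within ko_saline. Their means on arrays 1 to 4 were -0.45, 0.12, 0.61 and -1.13, in the order of the Fn1 levels, and Adgre1 alone, chosen after its values were seen, stood at 1.00, 1.87, 2.48 and -0.95. Between groups the list did not follow Fn1, with 0.25 to 0.90 in wt_saline, -0.01 to 0.84 in wt_OVA and -0.53 to 0.67 in ko_OVA. Chil3 was the brightest gene of the list in the wt groups and weighed most in its summed level there. The summed level was 33.9 to 60.6 times the 75th percentile in wt_saline and 53.1 to 145 in wt_OVA. It was 4.85 to 19.5 in ko_saline and 10.4 to 113 in ko_OVA.

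Striated muscle markers, all 8 measured, had their highest means on ko_saline 2 (4.65), wt_OVA 1 (3.97) and ko_saline 3 (3.33), the arrays on which Fn1 was highest too. On ko_saline 1, where Fn1 was 0.54, the list was at -2.41. On wt_saline 1, where Fn1 was at the floor, it was at 1.45. In wt_OVA the arrays 3 and 4 had striated muscle means of -2.79 and -2.36 beside Fn1 levels of -0.36 and -0.44, above the wt_saline arrays. The part of any of these cell types in the Fn1 values was not tested. Over the 16 arrays the genes that followed Fn1 most closely were St8sia4 (r = 0.911), Syk (0.890) and C4b (0.879).

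**Figure D4:**
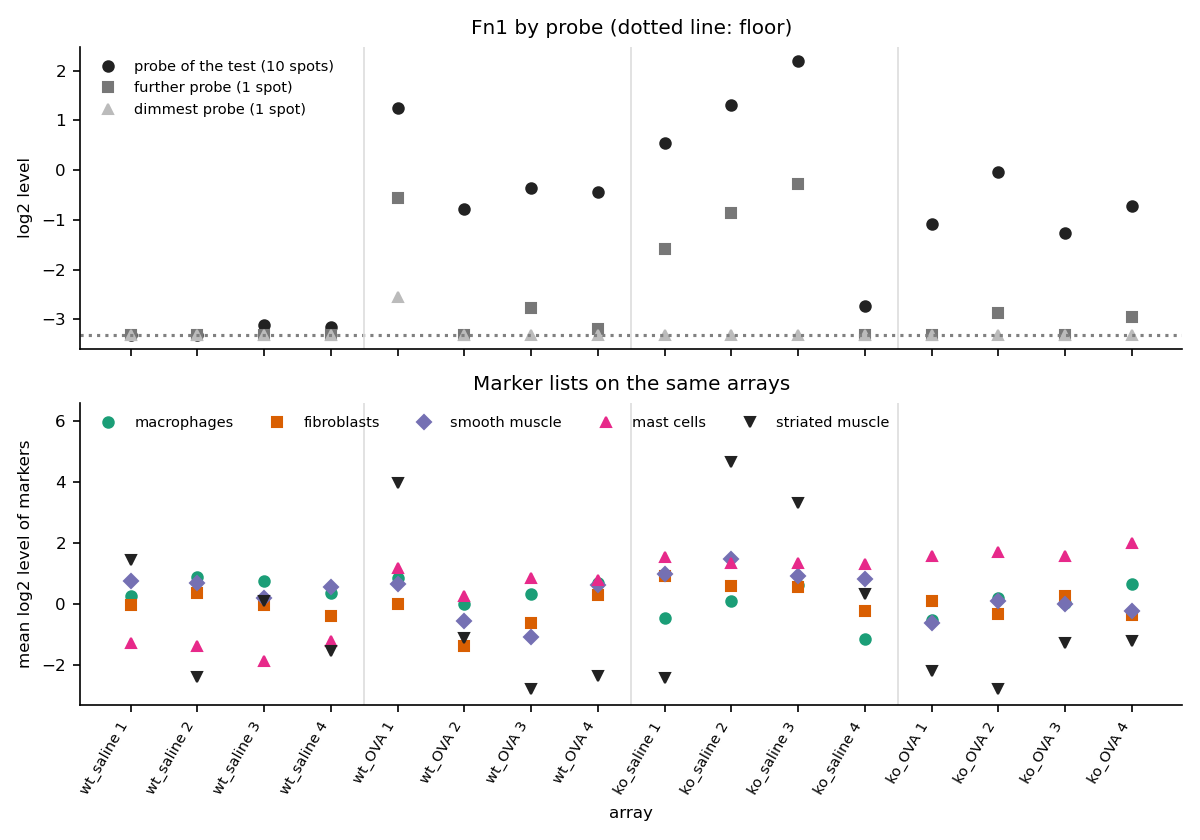
Upper panel: log2 level of the 3 Fn1 probes on each array, with the floor as a dotted line; lower panel: mean log2 level of the macrophage, fibroblast, smooth muscle, mast cell and striated muscle markers on the same arrays. The probe used for the test lies at or near the floor on the 4 wt_saline arrays and on ko_saline 4 at -2.74, and is highest on ko_saline 3 at 2.20.

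Postn encodes periostin, a matricellular protein that airway epithelial cells release in type 2 inflammation. It lay at the floor on 13 of 16 arrays, among them all 8 ko arrays. It measured -3.14 on wt_saline 4, -2.81 on wt_OVA 1 and -2.42 on wt_OVA 4. The values at the floor have no order, so no fold is given. Postn was part of the fit and was not called, but that result rests on these floor values, so its differences are not printed.

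Lists of further pathway genes gave the same count. Of 45 further TGF-beta responsive genes, such as collagens, matrix proteases and Smad regulators, 44 were measured and 0 were called in any of the 6 comparisons, beside 1.56% higher and 1.06% lower over all genes with OVA in wt and smaller shares in the other comparisons. At those shares a list of this size or smaller would hold few or no calls, so the counts set none of these lists apart. The median difference of ko from wt over both agents was 0.0024 for these genes, against -0.01 for all genes tested. Of 20 ligands, latency proteins, receptors and receptor Smads, 18 were measured and 0 called, with a median of 0.08. The 5 measured subunits of the alpha v integrins, Itgb6 included, gave 0 calls and a median of -0.04.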

How the data were processed

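RNA of airway epithelium was labelled with Cy3 (0.5 µg per sample) and hybridised to one-colour mouse arrays, per the labels' protocols. The deposited scanner files, made with Agilent Feature Extraction (10.5.1.1 in the file headers, 10.1 in the submitters' processing notes), hold background-subtracted intensity values and spot flags. The deposited series table gives the authors' log2 values, with medians per array from 5.90 to 5.94 and an unstated centring, and served as an alternative. The number of arrays limits the precision.

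Control spots and 3103 spots flagged as outliers were left out, and spots of 1 probe were averaged. Each array was scaled by its own 75th percentile and log2 transformed. Values under -3.32 were raised to that floor, at which every array could still detect a probe. A filter that required detection above background on at least 4 of 16 arrays kept 25615 of 41174 probes. The brightest probe stood for each gene. Symbols came from RefSeq accessions (24844 probes matched, counted before this filter), and 12850 of the 18566 units tested had one. All 16 arrays were fitted in limma 3.58.1 (R 4.3.3) with 1 mean per group, 6 contrasts, and Benjamini-Hochberg adjustment over all units at 0.05. The fit was tested on simulated data.

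The members and lists were chosen with earlier results of these data known. Genes of the marker lists that passed the threshold are not all named. The text names all 9 members, Itgb6 and the pathway list genes that passed it. For members with an SD of at least 0.3, it also names the 3 named genes with the highest Pearson's r. A gene that this rule names for Id1 is not reported here. Results were recomputed with 16 other settings and without each array in turn, and a difference was counted as reversed where its sign turned and it moved by over 1 standard error or was called. A further 2 settings were chosen after seeing the data: a floor 3 lower, and leaving out the slide scanned on another day. Same-numbered samples of different groups did not deviate together (8 of 24 correlations of their deviations over 0.1), so the numbers were not used as pairs.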

Additional observations from a re-analysis of the deposited data

Results flagged for a closer look

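Within single groups of 4 arrays, 35 sets of values of the 9 genes were checked. In 4 of them, the gap of an array to its nearest neighbour, divided by the range of the set, exceeded Dixon's 95% critical value for 4 values. Chance alone passes it in about 5% of sets. The Postn set of wt_saline cannot be counted against that rate, since its other arrays share the floor value and any level above it would pass. The Postn sets of ko_saline and ko_OVA lay wholly at the floor and could not pass. Tgfbi on ko_saline 4 stood at a log2 level of 0.25, below the 1.46 to 1.65 of the other ko_saline arrays. Id1 on ko_OVA 3 stood at 2.54, above 1.78 to 1.87 on the other ko_OVA arrays, and without that array the OVA difference of Id1 in ko was -0.80. Smad6 on wt_OVA 1 stood at -0.46, below -0.13 to -0.09. Postn on wt_saline 4 stood at -3.14, while the other wt_saline arrays lay at the floor of -3.32.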

How the results depend on the processing

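Fn1 was behind most changes in the number of called members. With OVA in wt the number rose from 0 to 1 with quantile normalization, a lower floor, a stricter filter on dim probes, outlier spots kept, slide as a fixed or random block, only the arrays compared, and the alternatives added after seeing the data (a floor 3 lower, and without the slide of the other scan day). It rose to 2 with array weights, which also called Id1. For ko against wt after saline it rose from 0 to 1 with array weights and without the slide of the other scan day. Leaving out each array in turn gave 0 to 1 called members with OVA in wt, in ko against wt after saline and over both agents, and in the interaction, the last 3 through ko_saline 4 alone.

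Median scaling shifted the median of all genes by -0.28 with OVA in wt, 0.34 in ko against wt after OVA, 0.20 over both agents and 0.29 in the interaction. Under it the sign turned for Skil (-0.26) and Itgb6 (-0.12) with OVA in wt, Smad6 (0.19) and Pmepa1 (0.29) in ko against wt after OVA, Smad7 (0.18) and Skil (0.19) over both agents, and Pmepa1 in the interaction (0.081). With the array position as a block the sign turned for Smad6 with OVA in wt (0.093) and Skil over both agents (0.12). Skil also turned with the mean of its probes in ko against wt after OVA (-0.19) and without the slide of the other scan day over both agents (0.13). Pmepa1 with OVA in ko ranged from -0.072 to 0.25 when arrays were left out in turn. None of these differences was called in either setting. With the replicate number as a block, 370 genes were called with OVA in wt, Fn1 there had an adjusted p of 0.0703, and 0 members were called in any comparison.

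Over all genes, calls with OVA in wt numbered 485, and from 94 with the array position as a block to 1451 with array weights. They numbered 139 with OVA in ko (7 to 354), 30 in ko against wt after saline (15 to 125), 27 after OVA (7 to 38), 50 over both agents (27 to 210) and 0 in the interaction (0 to 3). With median scaling, 39 were higher and 61 lower with OVA in wt, against 289 and 196. Over both agents the split was 71 and 8, against 38 and 12. After OVA it was 24 and 5 with median scaling, 6 and 1 with normexp, and 30 and 7 with the series table, against 19 and 8. Probes at the floor, Postn on 13 arrays and Fn1 on 2, carry only an upper bound there.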
